A study of Mus musculus with 20 samples.

Results

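The aminoacyl-tRNA synthetase genes were followed through 10 sorted types of mouse blood cell. They were found by symbol: a gene was taken where its probe set carried a single symbol made of the letter of an amino acid and "ars", with the suffixes 1 or 2 and the names Farsa, Farsb and Eprs included. This gave 35 of the 18193 named genes, with 72 of the 34945 probe sets that carry a single symbol. By their known sites of action, 17 genes encode cytosolic enzymes, 16 encode mitochondrial enzymes, and Gars and Kars each serve both compartments. Of the 35, 29 were tested, where the gene's brightest probe set read above 5 (log2) on 2 arrays or more: 15 cytosolic, 12 mitochondrial and both dual genes, among 9810 genes tested in all. Farsa and Yars (cytosolic) and Aars2, Ears2, Pars2 and Sars2 (mitochondrial) did not reach that level and are described by their values alone.

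Each type was measured on 2 arrays (Affymetrix Moe430 v 2.0), each made from 4 pooled samples of wild-type C57Bl/6 CD45.1 mice that the labels call female and 12 to 14 weeks old. The types were nucleated erythrocytes, granulocytes, monocytes, B cells, natural killer (NK) cells, long-term hematopoietic stem cells (LT-HSC), naive T cells of the CD4+ and of the CD8+ kind, and the same kinds of T cell labelled as activated by an LPS treatment. No other treatment is labelled, and all were sorted by flow cytometry at 25000 to 50000 cells before 2 rounds of RNA amplification. The series calls the 2 arrays of a type biological replicates, and the p-values measure the spread between such pools.

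An aminoacyl-tRNA synthetase joins an amino acid to its matching tRNA, the step that ties the genetic code to the protein being made. Cytosolic enzymes supply the ribosomes that read nuclear messages, and a separate set, also encoded in the nucleus, supplies the ribosomes inside mitochondria. Several cytosolic enzymes sit together in the multisynthetase complex with scaffold proteins, and many cytosolic synthetase genes are known targets of ATF4, the transcription factor of the amino acid and integrated stress response.

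The promoters of 26 of the 35 genes were in the RefSeq table (GRCm38.p6), as windows from 250 bases before to 50 bases after the annotated start. They were searched on both strands for TGATGNAA, the core of the response element of C/EBP and ATF proteins, and for CACGTG, the E-box that Myc family proteins bind. Counted by gene, TGATGNAA was present for 5 of the 12 cytosolic or dual genes with a window (41.7%), for 0 of 14 mitochondrial genes and for 1219 of all 27025 genes with a window (4.51%). CACGTG was present for 4 of the 12 cytosolic or dual genes (33.3%), Aars, Farsb, Iars and Tars, for 1 of 14 mitochondrial genes (7.14%), Ears2, and for 8.09% of all genes. The 5 windows with TGATGNAA are shown from 150 bases before to 30 bases after the start, with that of Qars, which holds neither motif, as the one tested cytosolic gene not called in T cell activation. Capitals mark the matches, and TTGCATCA and TTTCATCA are TGATGNAA read on the opposite strand.

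Aars: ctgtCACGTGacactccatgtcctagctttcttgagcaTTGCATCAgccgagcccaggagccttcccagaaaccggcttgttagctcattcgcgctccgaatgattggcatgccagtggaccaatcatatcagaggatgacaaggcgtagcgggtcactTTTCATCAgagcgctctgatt
Gars: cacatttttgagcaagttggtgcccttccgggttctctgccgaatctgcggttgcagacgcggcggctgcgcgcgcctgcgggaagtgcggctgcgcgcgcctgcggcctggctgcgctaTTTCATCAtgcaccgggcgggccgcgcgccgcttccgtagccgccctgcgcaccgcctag
Iars: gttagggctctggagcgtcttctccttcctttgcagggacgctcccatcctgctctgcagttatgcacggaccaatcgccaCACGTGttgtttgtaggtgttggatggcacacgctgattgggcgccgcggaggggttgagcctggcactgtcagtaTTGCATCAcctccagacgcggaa
Tars: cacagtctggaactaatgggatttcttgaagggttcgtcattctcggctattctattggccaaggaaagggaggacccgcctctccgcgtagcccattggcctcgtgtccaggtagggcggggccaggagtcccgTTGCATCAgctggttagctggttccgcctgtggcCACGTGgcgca
Yars: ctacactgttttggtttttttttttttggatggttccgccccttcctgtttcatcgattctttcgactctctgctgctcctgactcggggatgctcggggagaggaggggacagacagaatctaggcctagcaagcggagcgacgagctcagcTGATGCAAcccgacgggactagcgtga
Qars: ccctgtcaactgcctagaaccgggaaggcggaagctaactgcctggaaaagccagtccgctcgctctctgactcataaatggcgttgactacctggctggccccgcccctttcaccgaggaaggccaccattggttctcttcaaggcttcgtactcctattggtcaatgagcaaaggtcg

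These stretches lie at chr8:111033692-111033871 (plus strand) for Aars, chr6:55037851-55038030 (plus) for Gars, chr13:49681980-49682159 (plus) for Iars, chr15:11399629-11399808 (minus) for Tars, chr4:129189753-129189932 (plus) for Yars and chr9:108507855-108508034 (plus) for Qars. In Aars, which encodes the alanyl enzyme, TGATGNAA matches begin 112 bases before and 9 bases after the start, and an E-box begins 146 bases before it. The printed Aars stretch lies inside the gene's RefSeq record, which starts at base 111027778 of chromosome 8. In the glycyl gene Gars the match begins 30 bases before the start, and in the threonyl gene Tars 15 bases before it. In the isoleucyl gene Iars it begins 7 bases after the start and in the tyrosyl gene Yars 3 bases after it. A match is a description of the letters only, and no binding was measured.

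Cell labels were checked against marker genes. All 7 stem cell markers were above a log2 value of 5 on both LT-HSC arrays, and Il2ra, the inducible interleukin-2 receptor chain, was at 11.43 to 12.02 on the 4 activated T cell arrays against 2.46 to 3.68 on the naive ones. Cd4 itself was below 5 on every array (3.32 to 4.35), so the CD4 label was not checked by its own gene. Of 8 granulocyte genes, 7 were above 5 on both erythrocyte arrays, and 8 and 7 on the monocyte arrays. Their summed level was 75.3 and 85.3 in erythrocytes, 80.7 and 86.6 in monocytes, 114.2 and 115.1 in granulocytes, and 21.4 to 39.3 elsewhere. Erythrocyte genes also read on the granulocyte arrays, Slc4a1 at 13.29 and 11.89, Alas2 at 11.49 and 10.02 and Epb42 at 9.24 and 6.67. Of the monocyte genes, Cd14 was at 10.24 and 9.22 in monocytes and 2.12 and 1.82 in granulocytes. Itgam was at 9.5 and 8.31 in monocytes and 8.43 and 8.19 in granulocytes. Ccr2 was at 5.11 and 6.07 in monocytes and 9.37 and 9.63 in NK cells. Csf1r was at 13.95 and 13.71 in monocytes, 12.59 and 12.89 in granulocytes and 11.42 or below on all other arrays. Fcgr1 was below 5 on every array. Cxcr2, a granulocyte gene, was at 7.44 and 8.38 in monocytes and 7.26 and 6.93 in granulocytes. The Y-linked gene Eif2s3y was at 10.73 to 12.84 on the 4 activated arrays and on the naive CD4 and naive CD8 arrays numbered 1, and at 3.05 to 3.45 on all others, against the female label. Xist, a gene of female cells, was at 3.93 and 8.14 in activated CD4+ and 2.23 and 8.99 in activated CD8+ cells (arrays 1 and 2). It was at 4.28 and 10.55 in naive CD4+ and 9.88 and 10.47 in naive CD8+ cells.

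The synthetase genes were low in monocytes and granulocytes and high in activated T cells. Of the 29 tested, 28 varied among the 10 types (limma's F-test with a Benjamini-Hochberg adjusted p below 0.05, and a span of type means of at least 1), where 93.8% of all genes tested did. The exception was Mars2, the mitochondrial methionyl enzyme, whose type means spanned 0.45 on the log2 scale. Mars2 lay near background, at 4.29 to 5.18 over all arrays and above 5 on 4 of them. The lysyl gene Kars had the widest span of type means, 8.67, ahead of Tars at 7.75. The narrowest spans after Mars2 were those of the mitochondrial valyl gene Vars2 (1.13), the glutaminyl gene Qars (1.79) and the asparaginyl gene Nars (1.82). The median span over the 29 was 4.02, near the 3.78 of all genes tested. The highest mean was in activated CD8+ cells for 14 of 15 cytosolic genes, both dual genes and 3 of 12 mitochondrial genes, where 17% of all genes tested had theirs. The lowest was in monocytes for 11 of 15 cytosolic, both dual and 6 of 12 mitochondrial genes, against 20.6% of all genes.

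**Figure D1:**
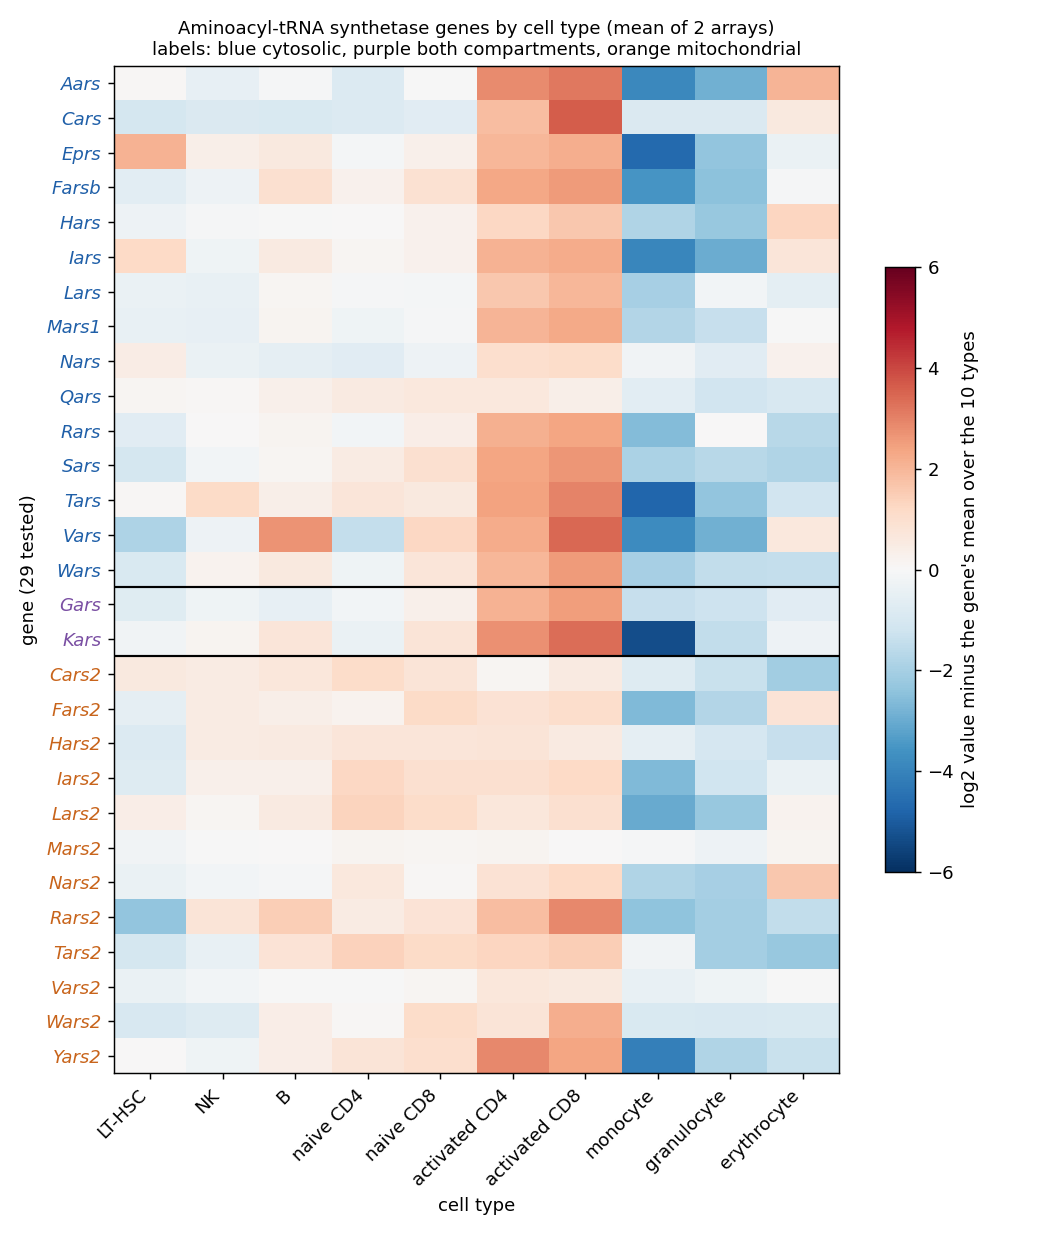
Heat map of the 29 tested synthetase genes (vertical axis) in the 10 cell types (horizontal axis); colour is the mean log2 value of the 2 arrays minus the gene's own mean over the types. The deepest blue is Kars in monocytes and the deepest red Cars in activated CD8+ cells, and the red in the activated T cell columns lies mostly among the cytosolic and dual genes.

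Cytosolic synthetase genes rose on T cell activation almost as a group, and mitochondrial ones for the most part did not pass the test. A gene was called where the adjusted p (limma, Benjamini-Hochberg over 9810 genes) was below 0.05 and the log2 difference at least 1, a 2-fold change. In CD4+ cells 18 of the 29 genes were called higher and 0 lower: 14 of 15 cytosolic, both dual and 2 of 12 mitochondrial genes, where 14.9% of all genes tested were higher and 18.2% lower. In CD8+ cells 17 were called higher and 0 lower: 14 cytosolic, both dual and 1 mitochondrial, where 14.4% of all genes were higher and 15.7% lower. Cars, counted among the 14 in both, read above 5 only on the activated T cell arrays and erythrocyte array 1. Its calls follow in part from the filter and are not taken as support. The median difference was 2.05 over the cytosolic, 0.13 over the mitochondrial and 0.02 over all genes in CD4+ cells. In CD8+ cells it was 1.95, 0.29 and -0.02. All 17 genes called in CD8+ cells were called in CD4+ cells (100% of the one list and 94.4% of the other), where over all genes the shared calls were 77.7% and 74.8%. In sorted pools, fewer cells of a type and less RNA per cell cannot be told apart.

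**Figure D2:**
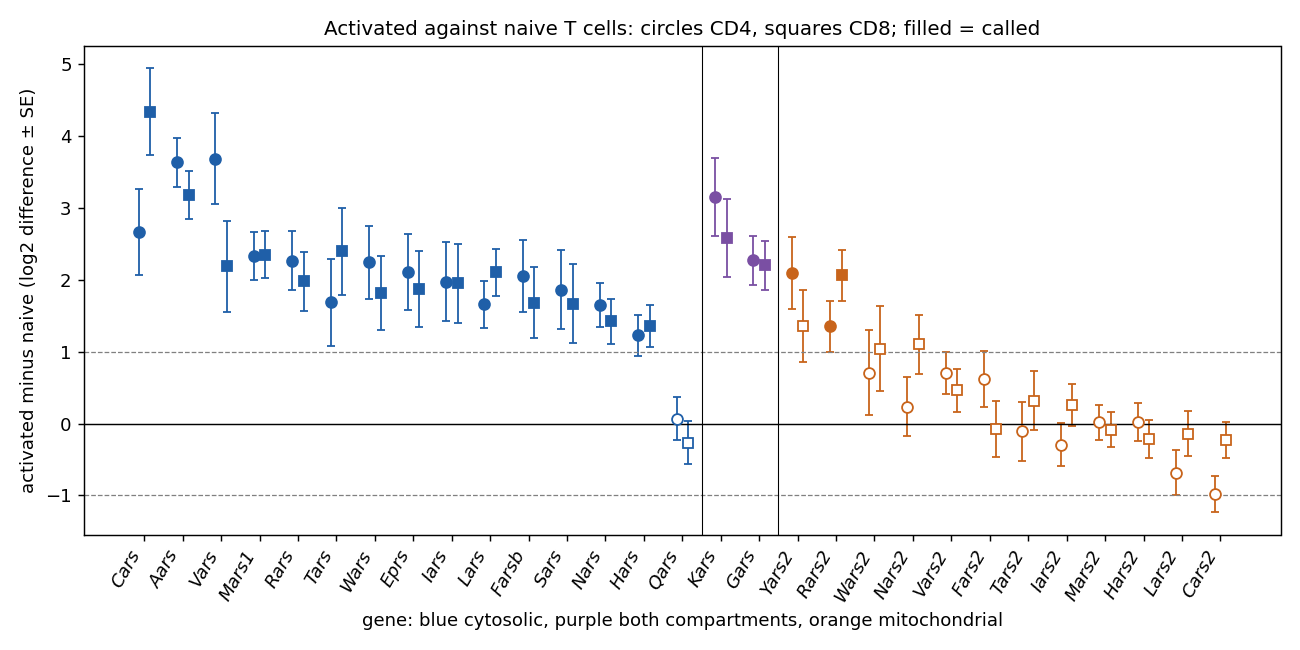
Log2 difference of activated minus naive T cells with its standard error (vertical axis) for each tested synthetase gene (horizontal axis), circles for CD4+ and squares for CD8+ cells, filled where called; the dashed lines mark a log2 difference of 1 in either direction. The 14 cytosolic genes other than Qars and the dual genes Kars and Gars are filled in both cell types, and most mitochondrial symbols are open.

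The alanyl gene Aars was at 7.50 and 8.33 in naive CD4+ cells and 11.46 and 11.64 in activated ones. In CD8+ cells it went from 8.71 and 8.69 to 11.61 and 12.15. Every activated array lay above every naive array. The difference was 3.64 in CD4+ cells (SE 0.34, adjusted p = 5.49e-06) and 3.18 in CD8+ cells (SE 0.34, adjusted p = 1.84e-05). Kars, which charges lysine tRNAs in both compartments, was at 7.06 and 8.63 in naive and 11.04 and 10.95 in activated CD4+ cells, a difference of 3.15 (SE 0.55, adjusted p = 0.000569). In CD8+ cells it was at 9.20 and 8.84 and then at 11.51 and 11.69, a difference of 2.58 (SE 0.55, adjusted p = 0.00269). The groups did not overlap in either cell type, and the naive CD4+ arrays lay further apart than any activated pair.

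The valyl gene Vars was at 3.49 and 5.45 in naive CD4+ cells, so that array 1 lay below the level of 5, and at 7.97 and 8.34 after activation. In CD8+ cells it started higher, at 6.87 and 7.44, and reached 8.81 and 9.87. The differences were 3.69 (SE 0.64, adjusted p = 0.000564) and 2.19. The cysteinyl gene Cars lay near background outside the activated T cells, at 2.44 to 3.11 on 15 of the other arrays. Its exception was erythrocyte array 1, at 5.62. It was at 5.20 and 5.76 in activated CD4+ cells and 6.97 and 7.62 in activated CD8+ cells, differences of 2.67 (SE 0.60, adjusted p = 0.00355) and 4.34 (SE 0.60, adjusted p = 0.000144). With naive cells near background, these sizes depend on where the background lies.

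The remaining cytosolic and dual genes rose by smaller amounts in CD4+ cells, from 1.23 for the histidyl gene Hars to 2.34 for the methionyl gene Mars1 (adjusted p = 0.000131 for Mars1). Among them the dual Gars and the arginyl gene Rars each rose by 2.27, the tryptophanyl gene Wars by 2.24 and the bifunctional glutamyl-prolyl gene Eprs by 2.11. In CD8+ cells the range over the same genes was 1.36 for Hars to 2.40 for Tars, with Mars1 at 2.35, Gars at 2.20 and the leucyl gene Lars at 2.11. Their sizes lay close together in the 2 cell types. Yars, not tested, was at 1.89 to 2.19 on the 4 naive arrays and 4.32 to 5.44 on the activated ones. Farsa, a subunit gene of the phenylalanyl enzyme, was also not tested and was at 4.06 to 5.55 on the activated arrays, against 2.83 to 3.55 on the naive ones. Farsb, the gene of the other subunit, rose by 2.05 and 1.68.

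Qars was the cytosolic gene that did not pass the test. It was at 13.10 and 12.80 in naive and 13.12 and 12.91 in activated CD4+ cells. In CD8+ cells it was at 12.79 and 13.28, and then 12.80 and 12.74. The groups overlapped in both, with differences of 0.07 (SE 0.30, adjusted p = 0.933) and -0.27 (SE 0.30, adjusted p = 0.571). Its 4 probe sets gave -0.43 to 0.22 in CD4+ and -0.56 to 0.11 in CD8+ cells, with 0 called. Qars is a member of the multisynthetase complex, and the other 6 tested members (Eprs, Iars, Kars, Lars, Mars1 and Rars) were called higher in both cell types, as were all 10 cytosolic or dual genes outside the complex. Of the genes with a promoter window, Eprs, Kars, Mars1 and Sars, the seryl gene, hold neither motif and were called higher too.

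Among mitochondrial genes the tyrosyl gene Yars2 and the arginyl gene Rars2 were the ones called in CD4+ cells. Yars2 was at 10.93 and 10.23 in naive and 12.70 and 12.66 in activated cells, a difference of 2.10 (SE 0.50, adjusted p = 0.00493). Its difference of 1.36 in CD8+ cells had an adjusted p of 0.0516 and was not called. Rars2 went from 7.28 and 8.01 to 8.99 and 9.01 in CD4+ cells, a difference of 1.36 (SE 0.35, adjusted p = 0.0086). In CD8+ cells it went from 7.85 and 8.08 to 10.11 and 9.95, a difference of 2.07 (SE 0.35, adjusted p = 0.000659). For Rars2 every activated array lay above every naive array. The smallest differences not called in CD4+ cells were those of Mars2 (0.02), the histidyl gene Hars2 (0.03) and the threonyl gene Tars2 (-0.11). In CD8+ cells they were those of the phenylalanyl gene Fars2 (-0.08), Mars2 (-0.09) and the leucyl gene Lars2 (-0.14). Of these genes Mars2 lay near background. The cysteinyl gene Cars2 had a CD4+ difference of -0.99 (adjusted p = 0.00729), just short of the 2-fold limit.

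Within an amino acid, 11 pairs of a cytosolic and a mitochondrial gene were both tested. The cytosolic difference was the greater in 11 of 11 pairs in CD4+ cells and in 10 of 11 in CD8+ cells, and only the cytosolic gene was called higher in 10 pairs of each. The median of cytosolic minus mitochondrial differences was 1.80 in CD4+ and 1.73 in CD8+ cells. The widest pair was that for cysteine, where Cars was tested mainly because of the activated arrays. Cars was at 2.67 and Cars2 at -0.99 in CD4+ cells, and 4.34 and -0.24 in CD8+ cells. For valine, Vars and Vars2 differed by 3.69 and 0.71 in CD4+ cells and by 2.19 and 0.46 in CD8+ cells. In both pairs the mitochondrial gene was not called. For leucine the values were 1.66 for Lars and -0.69 for Lars2 in CD4+ cells, and 2.11 and -0.14 in CD8+ cells. For methionine they were 2.34 for Mars1 and 0.02 for Mars2, and 2.35 and -0.09. For isoleucine they were 1.98 for Iars and -0.30 for Iars2, and 1.95 and 0.26. These 3 mitochondrial genes were likewise not called, and Mars2 lay near background. For threonine the values were 1.69 for Tars and -0.11 for Tars2 in CD4+ cells, and 2.40 and 0.32 in CD8+ cells. For tryptophan they were 2.24 for Wars and 0.71 for Wars2, and 1.82 and 1.04. For phenylalanine they were 2.05 for Farsb and 0.63 for Fars2, and 1.68 and -0.08. Wars2 passed 1 in CD8+ cells without passing the p threshold. For asparagine the values were 1.65 for Nars and 0.24 for Nars2 in CD4+ cells, and 1.42 and 1.10 in CD8+ cells. For histidine they were 1.23 for Hars and 0.03 for Hars2, and 1.36 and -0.22. Arginine was the amino acid with both genes called, Rars at 2.27 and 1.98 and Rars2 at 1.36 and 2.07, and the one where the mitochondrial difference was greater in CD8+ cells.

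**Figure D3:**
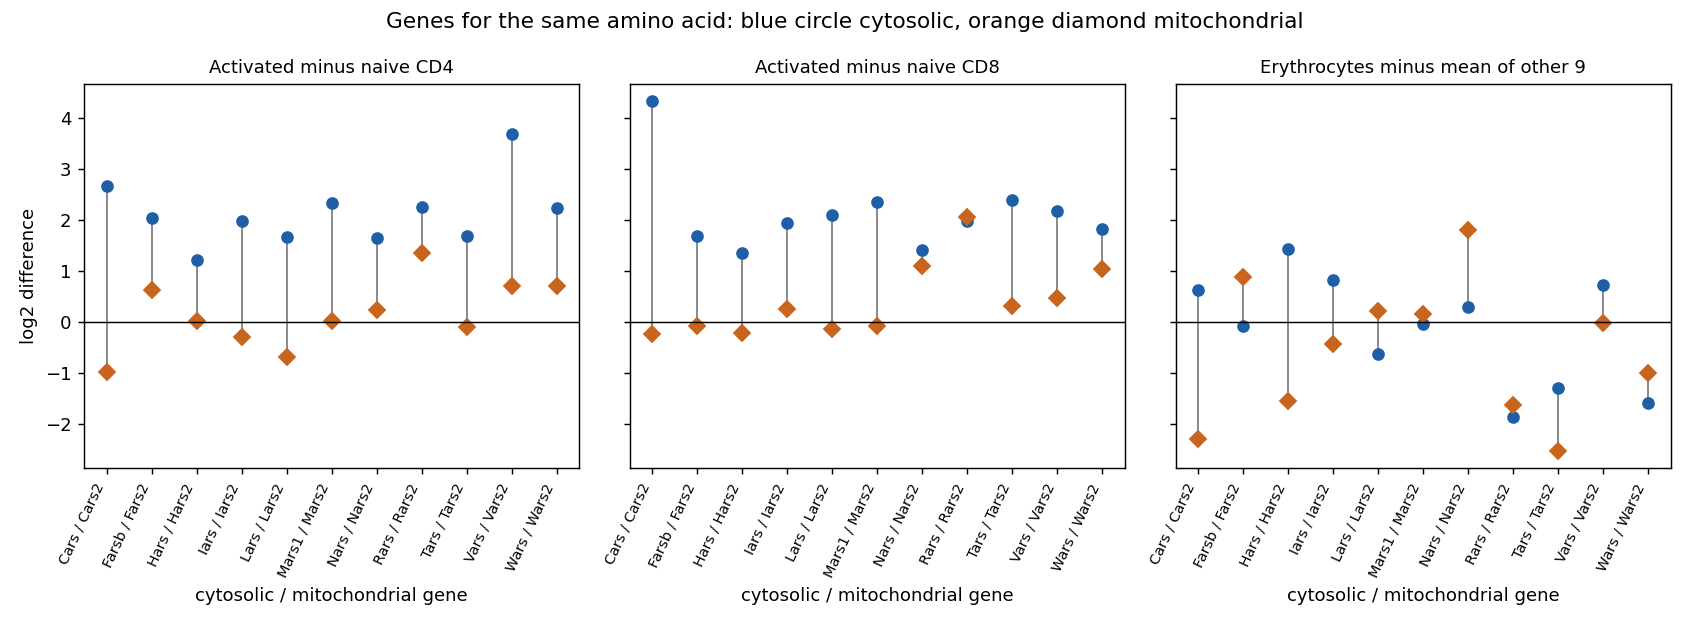
Log2 difference (vertical axis) of the cytosolic gene (blue circle) and the mitochondrial gene (orange diamond) of each of the 11 amino acids with both tested (horizontal axis), for activation in CD4+ cells, activation in CD8+ cells and erythrocytes against the mean of the other 9 types. In the activation panels the circle is above the diamond in 11 and 10 pairs, and in the erythrocyte panel in 5.

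The activation differences of the 2 cell types were compared by the interaction term, which takes CD4+ and CD8+ arrays as separate pools. Among the synthetase genes 0 were called and 0 had an unadjusted p below 0.05 in limma, where 65 of all genes (0.663%) were called and 606 had an unadjusted p below 0.05. The lowest unadjusted p was 0.0537, for Cars2. The largest differences between the cell types were 1.68 for Cars and -1.5 for Vars (CD8+ minus CD4+), and neither was called. With each probe set tested by itself, a second probe set of Iars2, the mitochondrial isoleucyl gene, was called (1.74, adjusted p = 0.025), from a CD4+ difference of -0.66 and a CD8+ difference of 1.08.

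Other measurements moved with activation. The 5′ Gapdh control probe set reads the far end of the amplified RNA. It was at 7.42 to 8.81 on the activated arrays and 3.89 to 4.45 on the naive ones. The 3′ Gapdh set was also higher, at 14.66 to 15.08 against 13.07 to 13.58. For the 5′ actin set the values were 3.94 to 5.55 against 3.57 to 3.89. The part of these controls in the synthetase differences was not tested. The T cell arrays with high Eif2s3y still differed in Xist, at 2.23 to 9.88, so a choice by Eif2s3y does not match them in sex make-up. With the naive arrays numbered 2 left out, so that every T cell array had high Eif2s3y, 13 synthetase genes were called higher and 1 lower in CD4+ cells and 12 higher in CD8+ cells. With the naive arrays numbered 1 left out, 11 and 12 were called, all higher. Without activated CD8 array 2 the CD8+ count was 10 (7 cytosolic, 1 mitochondrial and both dual genes). In CD4+ cells Tars and Sars were not called when any 1 of the 4 CD4 arrays was left out, and Tars was not called under 18 of the 33 settings, among them quantile normalisation, centring on the median and leaving out any LT-HSC, B cell or CD8 array. The count of mitochondrial genes called higher was 1 to 2 over the settings in CD4+ cells. The range was 1 to 4 in CD8+ cells, at 3 with array weights, the mean of all probe sets or a fit of only the groups compared, and at 4 with each probe set tested. In CD8+ cells Iars and Farsb were not called when any 1 of the 4 CD8 arrays was left out. Aars, Cars, Gars, Kars, Lars, Mars1 and Rars were called in both cell types under every setting they were tested in. Naive CD4 array 2 carried the granulocyte transcripts S100a8 at 10.75 and S100a9 at 10.68.

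Monocytes and granulocytes had the lowest synthetase levels. Each type was set against the mean of the other 9, so these comparisons share arrays and are given side by side. In monocytes 20 of 29 genes were lower and 0 higher, 12 cytosolic, both dual and 6 mitochondrial, where 34.4% of all genes tested were lower and 18% higher. In granulocytes 23 were lower and 0 higher, 11 cytosolic, both dual and 10 mitochondrial, where 26.4% of all genes were lower and 21.2% higher. The median differences in monocytes were -2.21 over cytosolic, -1.5 over mitochondrial and -0.49 over all genes. In granulocytes they were -1.85, -1.71 and -0.29. The erythrocyte markers on the granulocyte arrays move with the granulocyte comparison, and their part in it was not tested. The 5′ Gapdh control was at 8.26 and 8.23 on the granulocyte arrays and at 4.08 and 6.0 on the monocyte arrays. It was at 3.89 to 4.75 on those of LT-HSC, NK cells, naive T cells, B cells and erythrocytes. The 3′ Gapdh set was at 14.82 and 15.08 in granulocytes, 14.3 and 14.15 in monocytes and 12.45 to 13.75 in those other types. For the 5′ actin set the values were 9.15 and 7.59, 5.59 and 5.78, and 3.44 to 6.31. The part of these controls in these differences was not tested.

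Kars was at 2.73 and 3.13 in monocytes, below the level of 5, and at 6.65 and 6.91 in granulocytes. On the other 16 arrays it was at 7.06 or above. The monocyte difference was -5.92 (SE 0.41, adjusted p = 4.44e-08) and the granulocyte one -1.64. Aars was at 4.77 and 4.96 in monocytes and 5.81 and 5.85 in granulocytes, where no other array was below 7.50. Its differences were -4.28 (SE 0.25, adjusted p = 1.07e-08) and -3.21 (SE 0.25, adjusted p = 1.84e-07). Vars was at 2.12 and 2.13 in monocytes and 2.82 and 3.19 in granulocytes, with differences of -4.20 and -3.23. All 4 values lay below 5 and below those of every other array, so the sizes depend on where the background lies, as they do for Kars and Aars in monocytes.

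Other large cytosolic differences in monocytes were -5.29 for Tars, -5.16 for Eprs, -4.33 for Iars, -3.92 for Farsb and -2.89 for Rars. In granulocytes Iars differed by -3.30, Farsb by -2.74, Tars by -2.62, Eprs by -2.61 and Hars by -2.53. The monocyte arrays of these genes lay apart from each other, as with Eprs at 5.02 and 7.01, Tars at 3.70 and 6.23 and Iars at 6.27 and 8.71. Over the 29 genes the 2 monocyte arrays differed by a mean of 0.826 in size, and their correlation over the genes tested was 0.945, the lowest of the 10 types. The cytosolic genes not called in monocytes were Nars (-0.22), Qars (-0.68) and Cars (-0.95), and in granulocytes Rars (0.05), Lars (-0.17), Nars (-0.78) and Cars (-0.94). Cars lay near background in both.

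Of the mitochondrial genes, Yars2 differed most in monocytes, at 4.66 and 6.71 on the arrays, a difference of -4.57 (SE 0.37, adjusted p = 2.16e-07). It was followed by Lars2 (-3.38), the phenylalanyl gene Fars2 (-2.94), the isoleucyl gene Iars2 (-2.93), Rars2 (-2.70) and the asparaginyl gene Nars2 (-2.0). In granulocytes the leading genes were Lars2 (-2.55), Tars2 (-2.28), Rars2 (-2.24) and Nars2 (-2.21). Both monocyte arrays lay below 5 for Fars2 (4.04 and 4.3), Rars2 (4.45 and 4.98) and Nars2 (4.89 and 4.88). Nars2 was also below 5 in granulocytes (4.84 and 4.56), so these sizes depend on where the background lies. Mars2 (-0.06 in monocytes), which lay near background, and Vars2 were called in neither. Within an amino acid, the cytosolic gene had the more negative difference in 9 of 11 pairs in monocytes and 7 of 11 in granulocytes. The mitochondrial tryptophanyl gene Wars2, among the genes lower in granulocytes, was not called under 22 of the settings tried. It was at 4.12 and 4.18 on the granulocyte arrays, below the level of 5.

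Set against each other, monocytes were lower than granulocytes in 7 synthetase genes and higher in 1, where 17.3% of all genes tested were lower and 6.98% higher. The lower genes were Kars (-3.85, SE 0.55, adjusted p = 0.000188), Rars (-2.65), Tars (-2.40), Yars2 (-2.31), Eprs (-2.30), Lars (-1.84) and Iars2 (-1.45). Of the 7 tested genes of the multisynthetase complex 4 were lower (Kars, Rars, Eprs and Lars), and 1 of the 10 free cytosolic or dual genes (Tars). Rars was at 7.27 and 7.87 in monocytes and 10.21 and 10.23 in granulocytes. Tars2, the mitochondrial threonyl gene, was higher in monocytes, at 9.60 and 8.52 against 6.77 and 7.65, a difference of 1.85 (SE 0.41, adjusted p = 0.00438). Monocytes and granulocytes did not overlap in either gene. Second probe sets of Eprs (0.05) and Iars2 (0.27) had the opposite sign. Without granulocyte array 1 the count of 8 was 5, without Tars2, Tars and Eprs, which were not called without monocyte array 1 either, and in a fit of these 2 types alone it was 2. The granulocyte markers on the monocyte arrays move with this comparison, as do the erythrocyte markers on the granulocyte arrays. Their part in it was not tested.

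**Figure D4:**
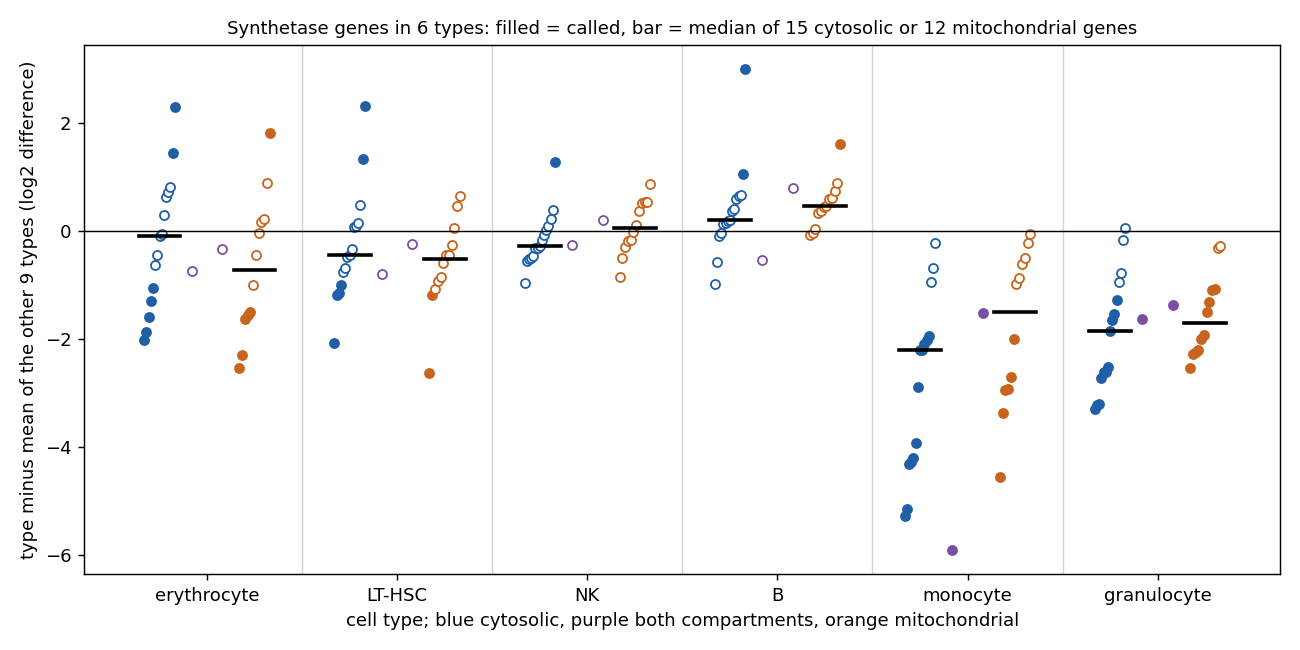
Log2 difference of each type from the mean of the other 9 (vertical axis) for every tested synthetase gene in 6 types (horizontal axis), blue for cytosolic, purple for dual and orange for mitochondrial genes, filled where called, with a bar at the median of the 15 cytosolic or 12 mitochondrial genes. Filled symbols lie below 0 for 20 genes in monocytes and 23 in granulocytes, and on both sides of 0 in erythrocytes and LT-HSC.

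In nucleated erythrocytes 3 synthetase genes were higher and 10 lower than the mean of the other 9 types, where 18.5% of all genes tested were higher and 36.7% lower. The count of lower genes lies near the share over all genes. Aars was at 11.10 and 10.46, close to the activated T cells and above every other array, a difference of 2.29 (SE 0.25, adjusted p = 2.88e-06). Hars, the histidyl gene, was at 14.70 and 14.04, where the arrays outside the activated T cells were at 13.38 or below, a difference of 1.44 (SE 0.22, adjusted p = 5.14e-05). Nars2 was at 8.44 and 8.19, above all 18 other arrays, a difference of 1.81 (SE 0.31, adjusted p = 0.000153). By the brightest probe sets, Nars2 was the one of the 29 tested genes whose highest mean was in erythrocytes. A second Hars probe set also had its highest mean there, 10.095 against 9.555 in activated CD8+ cells.

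The largest lower differences were those of the mitochondrial genes Tars2 (-2.54, SE 0.30, adjusted p = 6.42e-06) and Cars2 (-2.31, SE 0.19, adjusted p = 1.39e-07). Tars2 was at 7.39 and 6.57 and Cars2 at 7.16 and 6.78, the latter below every other array. The mitochondrial genes Rars2 (-1.63), Hars2 (-1.56) and Yars2 (-1.51) and the cytosolic genes Sars (-2.03), Rars (-1.87), Wars (-1.60), Tars (-1.30) and Qars (-1.05) were also lower. A second probe set of Qars had the opposite sign (0.20). The smallest differences not called were those of Vars2 (-0.03), Mars1 (-0.05) and Farsb (-0.09). The median was -0.09 over cytosolic, -0.73 over mitochondrial and -0.54 over all genes.

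Within an amino acid the 2 genes often lay on opposite sides of 0, in 7 of 11 pairs. Hars was at 1.44 and Hars2 at -1.56, both called. Cars was at 0.63 and Cars2 at -2.31, and Nars at 0.29 and Nars2 at 1.81, with the mitochondrial gene called in each. For arginine Rars and Rars2 were both lower, at -1.87 and -1.63, and for threonine Tars and Tars2, at -1.30 and -2.54. In these the genes of an amino acid moved the same way. Iars and Iars2 were at 0.82 and -0.43, Lars and Lars2 at -0.63 and 0.22, and Wars and Wars2 at -1.60 and -1.0. Mars1 and Mars2 were at -0.05 and 0.16, Vars and Vars2 at 0.72 and -0.03, and Farsb and Fars2 at -0.09 and 0.89. Of these 6 pairs Wars was the gene called.

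Against the mean of the activated T cells, 21 synthetase genes were lower in erythrocytes and 0 higher, 12 cytosolic, both dual and 7 mitochondrial, where 37.4% of all genes tested were lower and 21.4% higher. The largest were Sars (-4.32), Yars2 (-4.00), Rars (-3.93), Tars (-3.87) and Rars2 (-3.83). Hars (-0.15), Aars (-0.94) and Nars (-0.79) were the cytosolic genes not called. The second Hars probe set had the opposite sign (0.95). Erythrocyte array 1 was above array 2 by a median of 0.66 over the 29 genes, as with Cars at 5.62 and 2.82, and without array 2 the counts against the other 9 types were 5 higher and 6 lower. Qars, Tars, Wars and Yars2 were then not called lower, and Cars and Fars2 were called higher. The granulocyte markers on these arrays move with the erythrocyte comparisons, and their part in them was not tested.

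**Figure D5:**
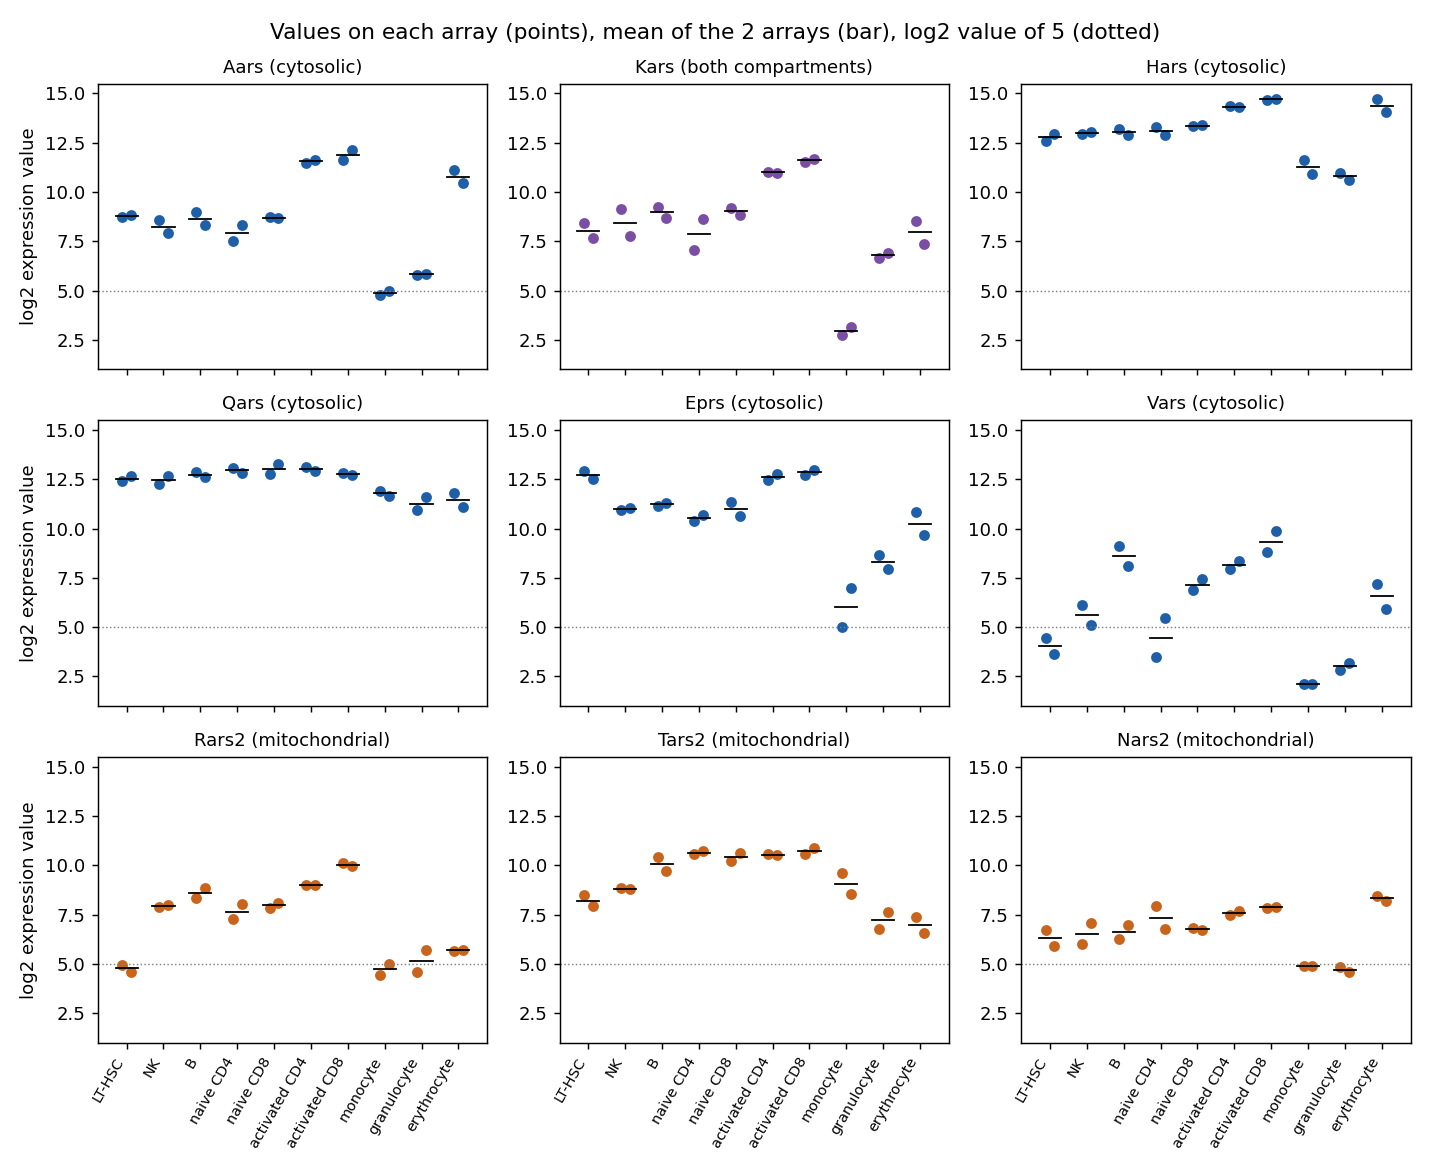
Log2 value on each array (points, vertical axis) and the mean of 2 arrays (bar) for 9 synthetase genes in the 10 cell types (horizontal axis), with a dotted line at a log2 value of 5. Aars is high in activated T cells and erythrocytes, at 10.46 to 12.15, Kars falls below the line in monocytes, and Qars stays between 10.92 and 13.28.

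In LT-HSC 2 synthetase genes were higher and 6 lower than the mean of the other 9 types, where 18.4% of all genes tested were higher and 21.5% lower. The 6 lower genes, 20.7% of those tested, lie near that share. Eprs was at 12.94 and 12.53, in the range of the activated T cells (12.49 to 12.98), and at 11.33 or below on all other arrays, a difference of 2.31 (SE 0.40, adjusted p = 0.000289). Iars was at 12.49 and 12.67, above every type but activated T cells, a difference of 1.33 (SE 0.41, adjusted p = 0.0143). Rars2 was at 4.95 and 4.60, within the range of the monocytes and granulocytes (4.45 to 5.70) and below all other types, a difference of -2.64 (SE 0.26, adjusted p = 2.54e-06). The other lower genes were Vars (-2.08), Tars2 (-1.19), Sars (-1.19), Cars (-1.16) and Wars (-1.0). Cars lay near background, and Vars, at 4.43 and 3.64, lay below 5, as did Rars2. The sizes for these genes depend on where the background lies. Without LT-HSC array 2 the count of 8 was 2, Eprs and Rars2 being called under every setting tried. With both monocyte arrays left out of the mean, the count was 12, 1 higher and 11 lower, and Iars, at 0.86, was not called. Cars and Wars were not called under 19 and 16 of the settings tried.

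B cells had 3 synthetase genes higher and 0 lower, where 16.4% of all genes tested were higher and 11.3% lower. Vars was at 9.13 and 8.10, in the range of the activated T cells, a difference of 3.01 (SE 0.48, adjusted p = 0.000259). Rars2 was at 8.36 and 8.85, a difference of 1.62 (SE 0.26, adjusted p = 0.000335), and Farsb differed by 1.05 (adjusted p = 0.0371). Farsb was not called without either B cell array, LT-HSC array 2, NK array 1 or monocyte array 1, while Vars and Rars2 were called under every setting tried. NK cells had 1 higher and 0 lower, where 16.1% and 11.6% of all genes were. This was Tars, at 11.26 and 10.49, a difference of 1.28 (SE 0.45, adjusted p = 0.0376). It was not called without either NK array, LT-HSC array 2, naive CD8 array 2, activated CD4 array 1 or B cell array 2, nor with both monocyte arrays left out.

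Genes that act beside the synthetases were also measured, and their counts are read against the shares of all genes called higher, 14.9% in CD4+ and 14.4% in CD8+ activation, or lower, 34.4% in monocytes and 26.4% in granulocytes. Of the 3 scaffold genes of the multisynthetase complex, Aimp1, Aimp2 and Eef1e1, 3 were higher in CD4+ activation (1.13, 2.72 and 2.56) and 2 in CD8+ activation (Aimp2 at 2.21 and Eef1e1 at 2.78, Aimp1 at 0.86 not called). All 3 were lower in monocytes (-1.91 for Aimp1, -4.59 for Aimp2 and -5.20 for Eef1e1) and in granulocytes. A list of 7 tested genes held those of tRNA proofreading and of the mitochondrial amidotransferase, and Tarsl2, a threonyl synthetase gene outside the symbol rule. Of these, 3 were higher in each activation. Gatb (2.27 and 1.74) encodes a subunit of the amidotransferase that makes glutaminyl-tRNA in mitochondria. Aarsd1 (2.03 and 2.04) clears mischarged alanine tRNAs, and Dtd1 (1.16 and 1.24) removes D-amino acids from tRNA. Tarsl2 was at 11.46 and 10.45 in erythrocytes and at 8.68 or below in all other types. The cytosolic elongation factors were called higher in 1 of 4 in CD4+ cells (Eef1d, 1.15) and 0 of 4 in CD8+ cells. In monocytes 4 of 4 were lower.

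Of 7 mitochondrial translation factors, 3 were higher and 2 lower in CD4+ activation, against 14.9% and 18.2% of all genes. Tufm, the elongation factor that brings charged tRNA to the mitochondrial ribosome, rose by 2.40, the ribosome recycling factor Mrrf by 2.22 and the elongation factor Gfm1 by 1.66. The release factor gene Mtrf1l (-1.17) and Mtfmt (-1.22), which formylates the initiator tRNA, fell. In CD8+ cells Gfm2 (2.29), Mrrf (2.06) and Tufm (1.99) rose and 0 were lower. These lists hold few genes and are described by their counts alone.

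Of 25 genes of the integrated stress response, 12 were higher and 1 lower in each activation comparison, against 14.9% and 18.2% of all genes in CD4+ cells and 14.4% and 15.7% in CD8+ cells. Asns, the asparagine synthetase gene and a known ATF4 target, was at 3.37 to 3.50 on the naive arrays and 11.85 to 13.36 on the activated ones, differences of 9.12 and 9.49 whose size depends on where the background lies, since the naive values are below 5. Eif4ebp1, which restrains cap-dependent translation, rose by 5.98 and 4.70, and Trib3, a pseudokinase that feeds back on ATF4, by 4.51 and 6.54. Shmt2 went from 9.65 and 10.14 to 13.78 and 14.04 in CD4+ cells. Atf4, named as the regulator though other genes rose more, rose by 1.52 and 1.41. Not called in CD4+ cells were Ddit3 (7.34 and 7.59 naive, 6.51 and 7.20 activated) and Ddit4 (11.20 and 11.75, then 10.26 and 10.31). Nor was Ppp1r15a called there (6.15 and 7.18, then 5.46 and 5.47). The gene lower in both was Eif2ak3, the kinase PERK (-2.01 and -1.57). Myc rose by 4.41 and 4.64. In LT-HSC 15 of the 25 were higher and 0 lower, against 18.4% and 21.5% of all genes, with Vldlr (5.65), Trib3 (5.07), Cebpb (3.61) and Asns (3.08) leading. In that type 2 synthetase genes were higher and 6 lower. In erythrocytes 8 were higher and 11 lower, against 18.5% and 36.7% of all genes, among them Asns (4.23), Phgdh (-5.49) and Psat1 (-4.06), the latter a pair of serine synthesis genes. Wars is known to be induced by interferon. Of 6 interferon-induced genes tested, 6 were higher in monocytes, against 18% of all genes, and Wars was lower there (-2.21). In CD4+ activation 1 was higher and 4 lower, against 14.9% and 18.2% of all genes, and Wars rose by 2.24. The part of interferon, or of the stress response, in the synthetase differences was not tested.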

How the data were processed

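The deposited values are on a log2 scale and were computed by the authors with GCRMA from Affymetrix Moe430 v 2.0 arrays, per the submitters' processing notes; neither its version nor whether all arrays entered 1 normalisation is given in the sources used here. Symbols came from the platform annotation (34945 probe sets with 1 symbol, 932 with several, 9160 not listed), and 34741 were matched to RefSeq by gene ID. A gene was represented by its brightest probe set over all 20 arrays and tested if at least 2 arrays exceeded 5. With limma 3.58.1 (R 4.3.3), 1 mean per type was fitted to all 20 arrays (10 residual degrees of freedom), and p-values were Benjamini-Hochberg adjusted over 9810 genes. Array number limits precision. Levels are compared within a probe set only.

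The members and lists were chosen with earlier results of these data known. Per comparison and compartment, up to 8 called members with the largest difference on each side and up to 3 uncalled with the smallest were named. Amino acid pairs, untested members and up to 4 genes per list and side were named besides, as were Atf4 and some list genes not called. On simulated data for CD4+ activation over 9810 genes, 45.6% of changes of 1.5, 58.6% of 2 and 90.3% of 3 (log2) were recovered, with 7 false calls among 9610. Those 9610 genes were left unchanged, where 3250 of the 9810 were called in the data. The adjusted p depends on that share, so these rates do not carry over directly. Deviations of same-numbered arrays correlated at -0.256 to 0.213 over 45 pairs of types, above 0.1 in 9. The numbers were therefore not taken to pair samples across the series, although the naive arrays of a number share their Eif2s3y level. The highest correlation, 0.213, was that of activated CD4 and activated CD8 cells, whose arrays of a number lie close in Xist. For naive CD4 and naive CD8 cells it was 0.123. The interaction and the shared calls take CD4 and CD8 arrays as separate pools, and whether they were was not tested. Alternatives covered scaling, the filter, probe set choice, the groups fitted, a replicate block and leaving out arrays.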

Additional observations from a re-analysis of the deposited data

How the results depend on the processing

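Across 33 settings, 81 of 132 called member results were called under every setting and 0 changed direction. The 2 arrays per type limit every count. Leaving out each array in turn gave 15 to 18 genes called for CD4+ activation, 10 to 18 for CD8+ activation, 0 for their difference, 11 to 14 for erythrocytes, 2 to 8 for LT-HSC, 0 to 2 for NK cells, 2 to 4 for B cells, 19 to 21 for monocytes, 19 to 23 for granulocytes, 5 to 10 for monocytes against granulocytes, 18 to 22 for erythrocytes against activated T cells and 27 to 28 for variation among types. Leaving out the naive arrays numbered 1 gave 11 for CD4+ activation. The NK count of 1 was 0 under quantile normalisation, 0 with no filter, 0 without the naive arrays of either number, 2 with the mean of all probe sets and 3 with each probe set tested. The B cell count of 3 was 5 with the mean and 8 with each probe set, and the difference of the activations gave 1 with each probe set. LT-HSC gave 5 with no filter, and monocytes against granulocytes 2 in a fit of only the groups compared; the cause was not tested, beyond the fewer arrays in the last. Quantile normalisation moved the median of all genes from -0.49 to -0.35 in monocytes and from -0.54 to -0.41 in erythrocytes. With the replicate number as a block, 17 genes were called for CD4+ activation, 17 for CD8+ activation and 20 for monocytes, and no count moved by over 1.5 times; Tars in CD4+ activation and Wars2 in granulocytes were not called. Leaving out probe sets ending in _x_at or _s_at was chosen after seeing the data.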
